A study of Mus musculus with 6 samples.

Results

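The insulin-like growth factor (IGF) system of mouse embryonic fibroblasts (MEFs) was described by the 10 of its genes that the study's table of 17092 genes holds under these symbols: the ligands *Igf1* and *Igf2*, the receptors *Igf1r* and *Igf2r*, and the binding proteins *Igfbp2* to *Igfbp7*. The rows were found by symbol, and each symbol matched 1 row. The study compared the transcriptome of MEFs from wild-type (WT) mice with that of MEFs from *Aff3ir-ORF2*-/- mice, with 3 RNA-seq libraries per genotype, named WT1 to WT3 and KO1 to KO3 as in the labels. *Aff3ir-ORF2* is one of the open reading frames of *Aff3ir*, a gene nested within *Aff3*. The paper describes a global knockout made with Cas9 and several guide RNAs in fertilized eggs. The paper also reports that its western blot and RT-PCR differed in how much *Aff3ir-ORF2* was lost. No other treatment was named for either genotype, and the cells were used after several passages in serum-containing medium. MEFs are the adherent cells that grow out of a dissociated embryo and can hold other cell types beside fibroblasts.

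IGF1 and IGF2 are secreted growth factors that signal for growth and survival through the tyrosine kinase IGF1R, which acts on the PI3K-AKT-mTOR and FoxO pathways. IGF2R, the cation-independent mannose 6-phosphate receptor, has no kinase, takes IGF2 up for breakdown in lysosomes and sorts lysosomal enzymes. The IGFBPs are secreted proteins that hold the ligands in the extracellular space, prolong their life and keep them from or release them to the receptor, and IGFBP7 is the relative that binds IGFs weakly. In the mouse, *Igf2* is expressed from the paternal and *Igf2r* from the maternal allele in most tissues, and fibroblasts are a well-known source of several of these proteins.

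The promoters of the ligands, of *Igfbp2* and of *Igfbp6* are shown because these 4 genes passed both thresholds of the genotype comparison with *Igfbp7* as the only other member. Each window runs from 250 bases before to 50 bases after a start site in RefSeq (build GRCm38.p6), 5′ to 3′ on the strand of the gene. Capitals mark matches, on either strand, to the letters of an AP-1 site (TGANTCA), a GC box (GGGCGG), an EGR site (GCGNGGGCG), a FoxO core (GTAAACA) or a TATA box (TATAAA). EGR and GC box matches can overlap. Where a gene had several windows, the one with the most matches is shown.
*Igf1*, chr10:87860861-87861160, plus strand: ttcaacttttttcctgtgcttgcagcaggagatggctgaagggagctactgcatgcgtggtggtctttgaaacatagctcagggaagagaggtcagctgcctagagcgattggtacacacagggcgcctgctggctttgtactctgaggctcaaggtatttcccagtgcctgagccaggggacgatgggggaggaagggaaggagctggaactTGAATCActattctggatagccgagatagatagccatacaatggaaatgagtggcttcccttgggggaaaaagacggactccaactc
*Igf2*, chr7:142657447-142657746, minus strand: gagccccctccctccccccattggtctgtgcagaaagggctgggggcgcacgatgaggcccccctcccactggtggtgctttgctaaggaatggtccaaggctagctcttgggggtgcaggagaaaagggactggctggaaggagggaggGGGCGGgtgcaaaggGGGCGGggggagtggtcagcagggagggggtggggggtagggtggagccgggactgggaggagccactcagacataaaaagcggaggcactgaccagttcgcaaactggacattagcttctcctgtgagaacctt
*Igfbp2*, chr1:72824230-72824529, plus strand: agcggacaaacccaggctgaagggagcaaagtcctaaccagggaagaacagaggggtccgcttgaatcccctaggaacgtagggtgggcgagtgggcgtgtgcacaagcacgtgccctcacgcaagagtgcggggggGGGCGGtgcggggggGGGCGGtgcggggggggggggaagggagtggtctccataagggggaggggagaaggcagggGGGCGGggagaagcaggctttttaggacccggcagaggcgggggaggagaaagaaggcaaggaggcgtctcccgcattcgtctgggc
*Igfbp6*, chr15:102143936-102144235, plus strand: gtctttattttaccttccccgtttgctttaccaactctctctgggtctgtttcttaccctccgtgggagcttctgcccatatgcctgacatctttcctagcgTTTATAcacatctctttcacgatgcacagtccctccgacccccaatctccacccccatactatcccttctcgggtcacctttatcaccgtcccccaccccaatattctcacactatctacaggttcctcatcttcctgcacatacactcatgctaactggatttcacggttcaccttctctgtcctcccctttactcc
The *Igf1* window held 1 AP-1 match, TGAATCA, that began at -37 from the start site, and no GC box. The *Igf2* window held GC boxes at -100 and -85, and that of *Igfbp2* held them at -113, -98 and -37. The *Igfbp6* window held a TATA box match on the opposite strand at -148. Among windows not shown, window 3 of *Igf2* held a GC box at -17, and windows 1 and 2 of *Igf2* held no match. Window 2 of *Igfbp2* held an AP-1 match at -39, and the *Igfbp7* window held GC boxes at -110, -96, -74 and -44. The GC content was 52.3% for *Igf1*, 63.3% for *Igf2*, 67% for *Igfbp2* and 49.7% for *Igfbp6*. All 10 members had a window, 14 in all, of which 6 held a GC box, 2 an AP-1 match, 2 a TATA box, 1 (*Igf2r*) an EGR match and 0 a FoxO core. Among all 32851 windows of the reference set, which were not limited to genes of the study, the shares were 35.7%, 7.81%, 13.6%, 5.55% and 3.65%. These matches describe letters only, and the counts per gene do not tell which start site was used.

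The libraries held 17435133 to 18252330 counts. WT libraries differed little more than counting error over genes (chi-square over degrees of freedom of 1.38 to 1.71 per pair), whereas *Aff3ir-ORF2*-/- libraries differed more (5.56 to 18.9), with KO2 apart from the other 2. Nothing in the labels says that libraries came from separate embryos or cultures, so the p-values measure the spread between these libraries, which may be technical. *Aff3ir* was not analysed here, so the deleted transcript gave no check of the labels. Summed markers of fibroblasts were led by *Fn1*, *Col1a1*, *Col1a2* and *Vim*. They stood at 35445 to 35460 CPM (counts scaled to library size, with TMM factors) in WT and at 30083 to 37642 CPM in *Aff3ir-ORF2*-/- libraries. Of 20 tested, 2 were higher and 2 lower by at least 1.5-fold at an adjusted p under 0.05, and 12 had an adjusted p under 0.05. Over all tested genes, the shares were 14.2%, 7.27% and 56.8%, which are the background for the other marker lists too. Of the 4 leading genes, short of 1.5-fold, *Fn1* was higher (log2 fold change 0.45) and *Col1a1* (-0.49), *Col1a2* (-0.41) and *Vim* (-0.39) were lower. Summed macrophage markers, led by *Lyz2*, *Mpeg1*, *Ctss* and *Mrc1*, stood at 28.4 to 32.6 CPM in WT libraries and at 1514 in KO1, 2095 in KO2 and 2589 in KO3. All 25 tested of 28 listed macrophage markers were higher in *Aff3ir-ORF2*-/- MEFs. *Fcgr1*, *C1qa*, *C1qb*, *Aif1* and *Ly86* were at 0 in every WT library. Of these, *Aif1* had only 1, 3 and 5 and *Ly86* only 4, 12 and 5 counts in KO1 to KO3, and neither was tested. Smooth muscle markers, led by *Acta2* and *Tagln*, summed to 4496 to 4604 CPM in WT and 7476 to 8199 CPM in *Aff3ir-ORF2*-/- libraries, with 6 of 8 higher. Skeletal muscle markers summed to 90.2 to 93.9 and 269 to 379 CPM, with *Acta1* and *Des* higher among 4 tested. The myogenic factors *Myf5*, *Myf6* and *Pax7* had at most 1 count in any library of either genotype. Adipocyte markers stood at 36.2 to 38.2 CPM in WT and 48.0 to 56.8 CPM in *Aff3ir-ORF2*-/- libraries (2 of 4 higher). Endothelial markers stood at 189 to 197 and 127 to 153 CPM (4 higher and 2 lower of 8). Most of this sum was *Flt1*, with means of 166 and 93.6 CPM (log2 fold change -0.83, adjusted p = 0.00226). *Cdh5* was lower as well, whereas *Vwf*, *Eng*, *Erg* and *Kdr* were higher, so the sum mainly follows *Flt1*. Some had few counts in WT and *Aff3ir-ORF2*-/- libraries: *Cdh5* 15 to 22 and 9 to 12, *Erg* 3 to 7 and 21 to 45, and *Vwf* 15 to 25 and 69 to 119. *Pecam1* had at most 5 counts in any library and was not tested. Neural markers stood at 52.1 to 58.2 and 27.8 to 53.3 CPM (2 higher and 3 lower of 7). The top value, that of KO3, held 18.9 CPM of *Gfap*, which was not tested. *Gfap* stood at 0.220 CPM in KO1, 0.644 in KO2 and at most 0.232 in WT libraries. Cartilage and bone markers stood at 70.7 to 72.5 and 49.4 to 67.1 CPM (1 higher and 2 lower of 4). Epithelial markers stood at 22.3 to 23.0 and 13.4 to 26.1 CPM (1 higher of 3), and hepatocyte markers were below 1 CPM in every library. The part of these other cell types in the values of the IGF genes was not tested.

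To ask how the IGF system differed between the genotypes, all 10 members were tested within one fit over 13075 genes. *Igf1*, *Igfbp2* and *Igfbp7* were higher in *Aff3ir-ORF2*-/- MEFs and *Igf2* and *Igfbp6* lower, by at least 1.5-fold at an adjusted p under 0.05, so that the ligands moved in opposite directions. That made 3 of 10 members higher, against 14.2% of all tested genes, and 2 of 10 lower, against 7.27%. An adjusted p under 0.05 alone was met by 7 of 10 members, against 56.8% of all tested genes, and 7 of 10 members showed no overlap between WT and *Aff3ir-ORF2*-/- libraries, against 66% of all. The median log2 fold change of the members was 0.17, and that of all tested genes was 0.0056. In bulk RNA, fewer cells of a type and less RNA per cell cannot be told apart.

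**Figure D1:**
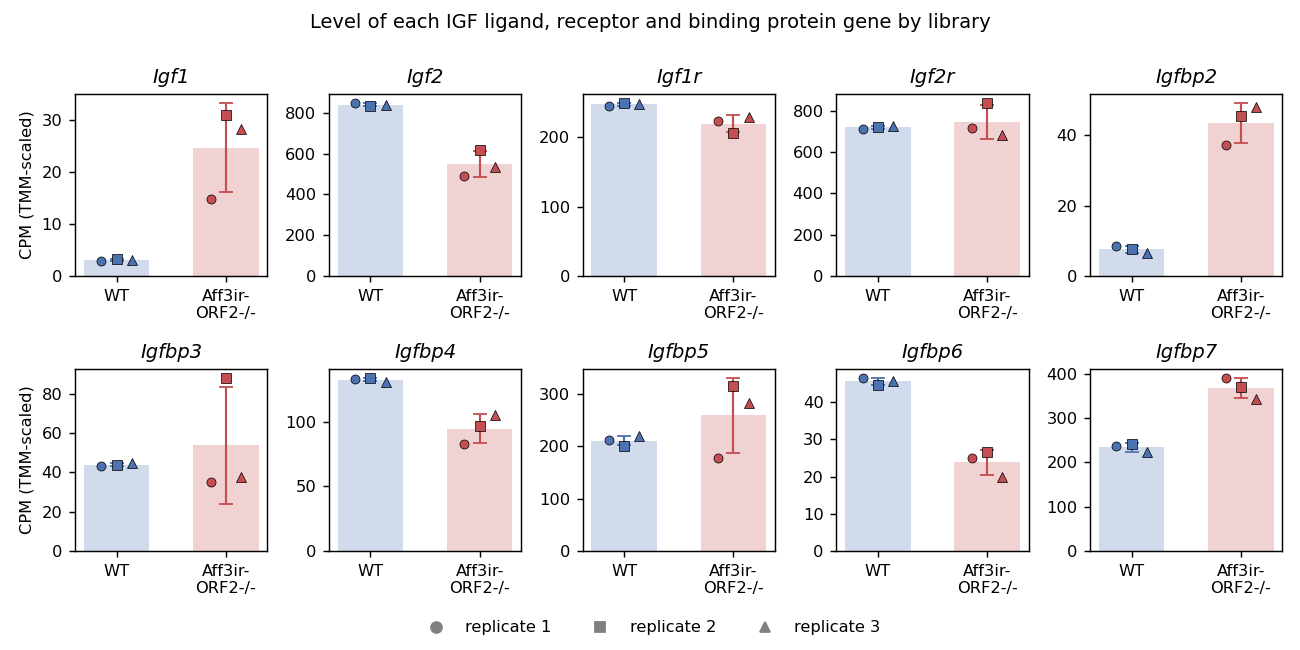
Level of each of the 10 genes in CPM (TMM-scaled) in the 3 WT and 3 *Aff3ir-ORF2*-/- libraries. Points are libraries, bars are means and error bars are SD (n = 3). The genotypes do not overlap for 7 genes and overlap for *Igf2r*, *Igfbp3* and *Igfbp5*, where KO2 is the highest of all libraries.

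*Igf1* (gene ID 16000), the growth hormone-dependent ligand, was scarce in WT MEFs and far more abundant in *Aff3ir-ORF2*-/- MEFs. It had 49, 56 and 52 counts in WT1 to WT3 and 271, 577 and 519 in KO1 to KO3, or 2.84, 3.19 and 2.98 CPM against 14.9, 31.0 and 28.3 CPM. The WT libraries were alike, every *Aff3ir-ORF2*-/- library was well above them, and KO1 was the lowest of its genotype. The mean rose from 3.00 ± 0.173 to 24.7 ± 8.62 CPM (SD, n = 3), 8.22-fold (log2 fold change 3.04, SE 0.34, adjusted p = 5.73e-04). Of all tested genes, 2.26% had a larger absolute log2 fold change. Leaving out any 1 library gave 2.84 to 3.30. KO1 also had the fewest counts of the summed macrophage markers within its genotype, whereas KO3 had the most of these and KO2 the most *Igf1*.

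*Igf2* (gene ID 16002), the fetal growth factor, moved the other way. WT libraries held 14648, 14641 and 14643 counts, and *Aff3ir-ORF2*-/- libraries 8959, 11490 and 9771, which was 850, 833 and 838 CPM against 492, 617 and 532 CPM. All *Aff3ir-ORF2*-/- libraries lay below all WT libraries, with KO2 nearest to WT. The spread of WT libraries (1.02%, SD over mean) was close to the 0.826% that counting alone gives. The mean fell from 840 ± 8.55 to 547 ± 63.6 CPM, a 1.54-fold lower level in *Aff3ir-ORF2*-/- MEFs (log2 fold change -0.62, SE 0.07, adjusted p = 1.25e-04). The change lay close to the 1.5-fold threshold, and it fell below it without KO1 (-0.55, adjusted p = 2.99e-04) and under upper quartile scaling (-0.58, adjusted p = 6.52e-04). The ligands in sum went from 843 ± 8.39 to 572 ± 71.1 CPM.

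Neither receptor passed both thresholds. *Igf1r* (gene ID 16001), the signalling receptor, had 4211, 4380 and 4332 counts in WT libraries and 4055, 3834 and 4214 in KO1 to KO3. After scaling, all 3 *Aff3ir-ORF2*-/- libraries were slightly below WT, with means of 247 ± 2.57 and 219 ± 12.3 CPM (log2 fold change -0.17, SE 0.05, adjusted p = 0.0132), short of 1.5-fold. Without WT2 the adjusted p was 0.0555. *Igf2r* (gene ID 16004), the clearance receptor of IGF2, had 12258, 12641 and 12699 counts in WT libraries and 13055, 15613 and 12468 in KO1 to KO3. Its groups overlapped, with KO2 above and the other 2 *Aff3ir-ORF2*-/- libraries within or below the WT range (719 ± 7.97 and 745 ± 82.9 CPM, log2 fold change 0.05, SE 0.07, adjusted p = 0.569), and the value without KO2 was -0.05 (adjusted p = 0.224). The receptors in sum stood at 966 ± 10.01 and 964 ± 70.6 CPM.

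Among the binding proteins, *Igfbp2* and *Igfbp7* were higher in *Aff3ir-ORF2*-/- MEFs. *Igfbp2* (gene ID 16008), a binding protein of fetal tissues with a preference for IGF2, had 146, 133 and 116 counts in WT libraries and 677, 847 and 883 in KO1 to KO3. The values were 8.47, 7.57 and 6.64 CPM against 37.2, 45.5 and 48.1 CPM, and the lowest *Aff3ir-ORF2*-/- library lay well above the highest WT library. *Igfbp2* rose 5.76-fold, from 7.56 ± 0.914 to 43.6 ± 5.71 CPM (log2 fold change 2.53, SE 0.12, adjusted p = 1.32e-06), which made it the member with the smallest adjusted p. *Igfbp7* (gene ID 29817), a matrix-associated relative that many stromal and endothelial cells secrete, had 4078, 4268 and 3894 counts in WT libraries and 7104, 6928 and 6307 in KO1 to KO3. Here KO1 was the highest library and KO3 the lowest of its genotype, and all 3 exceeded WT. Its mean rose from 234 ± 10.2 to 369 ± 23.4 CPM, 1.57-fold (log2 fold change 0.65, SE 0.06, adjusted p = 1.40e-05).

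*Igfbp6* and *Igfbp4* had less RNA in *Aff3ir-ORF2*-/- MEFs, and of these only *Igfbp6* passed 1.5-fold. *Igfbp6* (gene ID 16012), which binds IGF2 in preference to IGF1, had 803, 783 and 798 counts in WT libraries and 455, 495 and 367 in KO1 to KO3. No *Aff3ir-ORF2*-/- library reached the WT range, and KO3 was the lowest. The level was 1.91-fold lower, 45.6 ± 1.02 against 23.9 ± 3.43 CPM (log2 fold change -0.93, SE 0.09, adjusted p = 3.68e-05). *Igfbp4* (gene ID 16010), the substrate of the protease PAPP-A, had 2290, 2355 and 2289 counts in WT libraries and 1501, 1799 and 1924 in KO1 to KO3. It was below WT in every *Aff3ir-ORF2*-/- library, 133 ± 1.48 against 94.6 ± 11.3 CPM, a 1.40-fold difference (log2 fold change -0.49, SE 0.08, adjusted p = 7.26e-04). Its adjusted p thus passed and its fold did not.

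For *Igfbp3* and *Igfbp5*, single *Aff3ir-ORF2*-/- libraries decided the value. *Igfbp3* (gene ID 16009), the main carrier of IGFs in blood, had 745, 771 and 782 counts in WT libraries and 644, 1645 and 692 in KO1 to KO3. KO2, at 88.3 CPM, stood far above the WT range of 43.2 to 44.8 CPM, and KO1 (35.4 CPM) and KO3 (37.7 CPM) stood below it. The highest *Aff3ir-ORF2*-/- library was thus 2.50 times the lowest, the means were 43.9 ± 0.780 and 53.8 ± 29.9 CPM, and the difference was within this spread (log2 fold change 0.29, SE 0.39, adjusted p = 0.552). Without KO2 the sign turned (-0.27, adjusted p = 4.96e-04). *Igfbp5* (gene ID 16011), a binding protein held in the matrix, had 3668, 3534 and 3819 counts in WT libraries and 3247, 5883 and 5198 in KO1 to KO3. KO2 and KO3 were above WT and KO1 below, with means of 211 ± 8.95 and 259 ± 71.8 CPM (log2 fold change 0.30, SE 0.22, adjusted p = 0.288). Without KO1 the log2 fold change was 0.50 (adjusted p = 3.25e-04), and without KO2 it was 0.13 (adjusted p = 0.694). *Igfbp2* and *Igfbp5* are next to each other among the coding genes of chromosome 1, and only the first passed the test, while a difference between their changes was not tested.

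**Figure D2:**
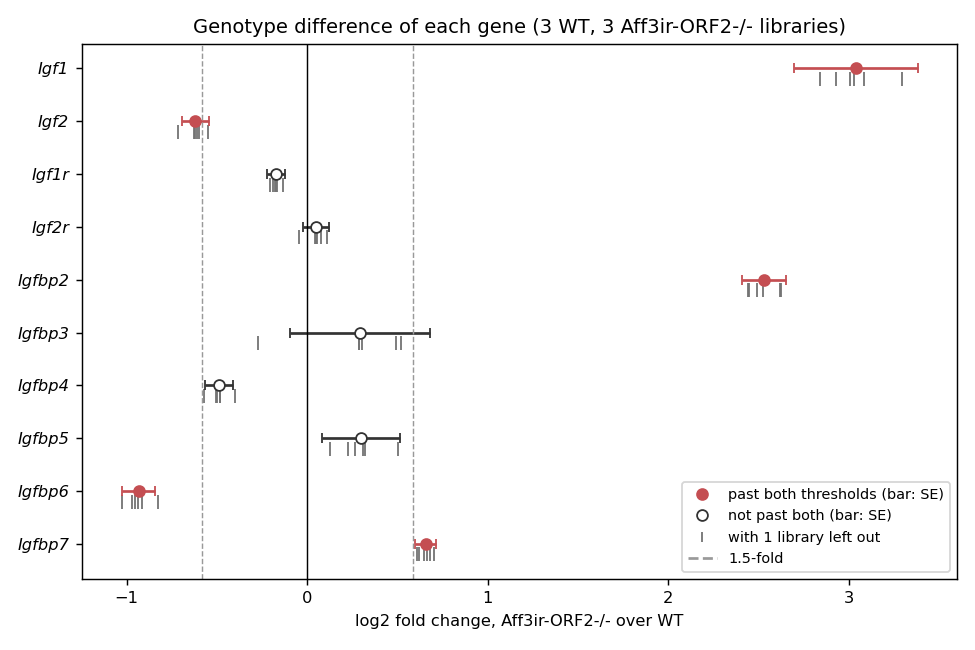
Log2 fold change of *Aff3ir-ORF2*-/- over WT MEFs for each of the 10 genes, with the SE as bars, the 1.5-fold thresholds as dashed lines and the values with 1 library left out as ticks. *Igf1* (3.04) and *Igfbp2* (2.53) lie farthest from 0, the ticks of *Igfbp3* reach from -0.27 to 0.52, and 1 tick of *Igf2* lies inside the threshold.

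Levels of different genes were compared as TPM, that is, counts divided by the length of the longest annotated transcript and scaled to the same total in every library. On this scale, *Igfbp7* (591 ± 24.8), *Igf2* (539 ± 3.64) and *Igf2r* (245 ± 3.75) were the most abundant members in WT MEFs, followed by *Igfbp6* (124), *Igfbp5* (106), *Igfbp4* (105), *Igf1r* (65.7), *Igfbp3* (55.0), *Igfbp2* (17.5) and *Igf1* (1.29). Neighbours in this order did not overlap between libraries except *Igfbp5* and *Igfbp4*. In *Aff3ir-ORF2*-/- MEFs the top 3 were again *Igfbp7* (941 ± 63.9), *Igf2* (356 ± 47.5) and *Igf2r* (257 ± 33.3) and the lowest was *Igf1* (10.8 ± 3.86). *Igfbp2* moved from rank 9 to rank 5 with a mean of 102, and *Igfbp6* from rank 4 to rank 8 with a mean of 65.8. The libraries of *Igfbp5* and *Igfbp2* overlapped there, as did those of *Igfbp4* and *Igfbp3*, of *Igfbp3* and *Igfbp6*, and of *Igfbp6* and *Igf1r*. The order depends on the transcript taken as length: with the median transcript length, *Igf2r*, *Igf2* and *Igfbp7* held ranks 1, 2 and 3 in both genotypes, and *Igf1* stayed the lowest.

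**Figure D3:**
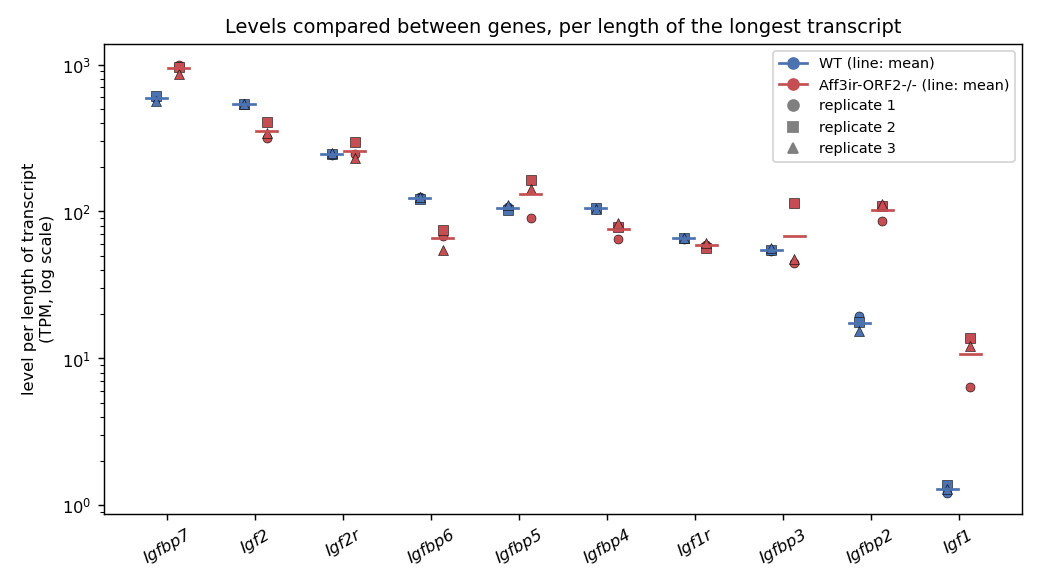
Level of each gene in TPM, by the length of its longest transcript, on a log axis, for WT and *Aff3ir-ORF2*-/- libraries (points) and their means (lines), ordered by the WT mean. *Igf1* is the lowest gene in both genotypes, at 1.29 and 10.8, and *Igfbp7* the highest, at 591 and 941.

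The make-up of the ligand and binding protein RNA differed accordingly. Per length, *Igf1* made up 0.223%, 0.255% and 0.237% of the ligand RNA in WT1 to WT3 and 1.99%, 3.25% and 3.43% in KO1 to KO3. *Igf2* thus exceeded *Igf1* 390 to 446 times in WT and 28.1 to 49.4 times in *Aff3ir-ORF2*-/- libraries, and it remained the predominant ligand RNA in all 6. The ratio of *Igf2* to its clearance receptor *Igf2r* was 2.25, 2.18 and 2.17 in WT and 1.29, 1.39 and 1.47 in *Aff3ir-ORF2*-/- libraries, without overlap. Its size depends on the length used: with the median transcript length the ratio was 0.967 to 1.002 in WT and 0.575 to 0.657 in *Aff3ir-ORF2*-/- libraries, so that in WT it was close to 1. Of the RNA of the 6 binding proteins, *Igfbp7* made up 57.9% to 60.4% in WT and 64.2% to 73.6% in *Aff3ir-ORF2*-/- libraries, *Igfbp2* 1.58% to 1.94% and 6.44% to 8.54%, and *Igfbp6* 12.0% to 12.8% and 4.17% to 5.09%. The shares of *Igfbp4* were 10.4% to 10.7% and 4.87% to 6.35%, whereas those of *Igfbp5* (at most 11.3% in WT, and 6.72% to 10.9%) and *Igfbp3* (5.35% to 5.76% and 3.31% to 7.55%) overlapped. In CPM, the binding proteins in sum stood at 675 ± 5.41 in WT and 843 ± 98.2 in *Aff3ir-ORF2*-/- libraries, and the 10 members in sum at 2484 ± 5.21 and 2379 ± 229. With the median transcript length, *Igfbp4* made up 35.4% to 36.0% of the binding protein RNA in WT and 19.4% to 23.9% in *Aff3ir-ORF2*-/- libraries, *Igfbp6* 8.12% to 8.63% and 3.13% to 4.04%, and *Igfbp7* 40.4% to 42.5% and 51.7% to 60.5%. The size of each share thus rests on the length, while *Igfbp2* and *Igfbp7* had larger and *Igfbp4* and *Igfbp6* smaller shares in *Aff3ir-ORF2*-/- libraries with either length. These shares and sums follow from the member values above and were not tested.

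Beyond the 10 members, 5 lists of other IGF pathway genes held 85 genes, of which 71 were tested. In *Aff3ir-ORF2*-/- MEFs, 14 of these rose and 3 fell, beside the 14.2% and 7.27% of all tested genes. These shares are the background for the counts of each list below. Among other ligands, receptors and binding proteins of the insulin family, 0 of 7 tested genes passed both thresholds in either direction by edgeR. By DESeq2, or with an unadjusted p under 0.05 in place of the adjusted one, 0 did as well. An adjusted p under 0.05 was met by 5 of 7, against 56.8% of all tested genes (median log2 fold change of the list 0.13). The genes of the list with the most counts were *Lrp1*, an endocytic receptor that also binds IGFBP3 (0.27, adjusted p = 0.00787), and *M6pr*, the cation-dependent mannose 6-phosphate receptor (-0.19, adjusted p = 0.00468). *Insrr*, *Igfbpl1* and *Igfals* had at most 4 counts in any library and were not tested, and *Ins1*, *Ins2*, *Igfbp1* and *H19* were not analysed here.

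Of the proteases that cleave IGFBPs and their inhibitors, 3 of 9 tested genes were higher and 1 lower (median of the list -0.13). The lysosomal protease *Ctsd* rose from 636 ± 2.77 to 1728 ± 160 CPM (log2 fold change 1.44, adjusted p = 7.10e-07). *Stc1*, an inhibitor of PAPP-A, rose from 6.37 ± 0.317 to 18.9 ± 4.10 CPM (1.57, adjusted p = 4.62e-05), and *Pappa2*, a protease of IGFBP3 and IGFBP5, rose from 0.592 ± 0.183 to 2.53 ± 0.618 CPM (2.08, adjusted p = 3.41e-04). *Adam12*, a membrane-anchored metalloprotease that cleaves IGFBP3 and IGFBP5, fell from 387 ± 10.2 to 156 ± 17.3 CPM (-1.31, adjusted p = 1.97e-06). *Adam9*, the other gene of this list with the most counts, differed by 0.33 on the log2 scale (adjusted p = 0.00109), short of 1.5-fold. *Pappa*, the gene of PAPP-A itself, stood at 279 ± 8.56 and 254 ± 56.1 CPM (-0.13, adjusted p = 0.483). *Stc2*, of the same list, stood at 26.8 ± 0.890 and 22.3 ± 6.39 CPM (-0.27, adjusted p = 0.274). For both, the libraries of the genotypes overlapped. *Pappa2* had only 8, 9 and 14 counts in WT1 to WT3 and 49, 57 and 34 in KO1 to KO3. With a filter of at least 10 counts in every library, which *Pappa2* does not meet, 2 genes of the list were higher instead of 3. Leaving out WT2 or KO2, or testing with no filter, brought the number of lower genes to 2.

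Of the receptor adaptors and PI3K-AKT-mTOR genes, 5 of 34 tested genes were higher and 1 lower (median 0.05), and the docking proteins of the receptor moved in opposite directions. *Irs1* rose (0.59, SE 0.08, adjusted p = 1.43e-04) from 633, 618 and 623 counts to 1005, 891 and 1076, and *Irs2* fell (-0.63, SE 0.07, adjusted p = 4.27e-05) from 883, 916 and 899 counts to 603, 567 and 664. Each was just past 1.5-fold. The regulatory PI3K subunits *Pik3r1* (1.07, adjusted p = 4.01e-05) and *Pik3r3* (0.80, adjusted p = 1.62e-05), the leukocyte-enriched catalytic subunit *Pik3cd* (0.92, adjusted p = 0.00159) and *Rictor*, the defining subunit of mTORC2 (0.61, adjusted p = 2.31e-05), were higher as well. *Nedd4*, a ubiquitin ligase (-0.16, adjusted p = 0.0606), and *Rack1*, a ribosomal scaffold (-0.25, adjusted p = 6.02e-04), had the most counts and were not past both thresholds. Without KO3, 3 genes of the list were higher instead of 5, and without KO2 0 were lower instead of 1. The number of higher genes was 4 without WT2, WT3 or KO1, with no filter, by limma voom, and with the replicate number as a block. The macrophage marker sum differed between the genotypes as given above, and its part in these values was not tested.

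Of the growth hormone receptor axis, which drives *Igf1* in liver, 1 of 7 tested genes was higher and 1 lower (median 0.21). An adjusted p under 0.05 was met by 4 of 7, against 56.8% of all tested genes. *Socs3*, a feedback inhibitor of cytokine receptors, rose (0.89, SE 0.11, adjusted p = 1.41e-04), and *Jak2*, the kinase of the growth hormone receptor, fell (-0.62, SE 0.09, adjusted p = 4.79e-04). *Socs2* (0.58, adjusted p = 0.00604) and *Stat5a* (0.45, adjusted p = 0.00153) were higher by less than 1.5-fold. The receptor *Ghr* itself had 1784, 1853 and 1828 counts in WT libraries and 2143, 1806 and 2161 in KO1 to KO3, which overlapped after scaling (0.08, adjusted p = 0.344). Without WT1 or without KO2, 2 genes were higher, and without KO3 0 were lower. Under upper quartile scaling *Jak2* lost its call and 2 genes were higher, as they also were with scaling to total counts. Of the FoxO factors and genes that FoxO factors are known to activate, 14 were tested (median 0.41). By edgeR, 5 were higher and 0 lower, beside 14.2% and 7.27% of all tested genes. By DESeq2, or with an unadjusted p under 0.05 and 1.5-fold, 0 were lower too, while *Cited2* was lower by less than 1.5-fold (-0.55, adjusted p = 0.0279). *Txnip*, an inhibitor of thioredoxin and of glucose uptake (1.63, adjusted p = 5.50e-07), *Ccng2*, a cyclin of arrested cells (1.22, adjusted p = 3.52e-06), the factors *Foxo3* (0.95, adjusted p = 1.94e-05) and *Foxo1* (0.82, adjusted p = 6.39e-05), and the sestrin *Sesn3* (1.54, adjusted p = 0.00332) were higher. Without KO1 or without KO3, 1 gene of this list was lower.

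**Figure D4:**
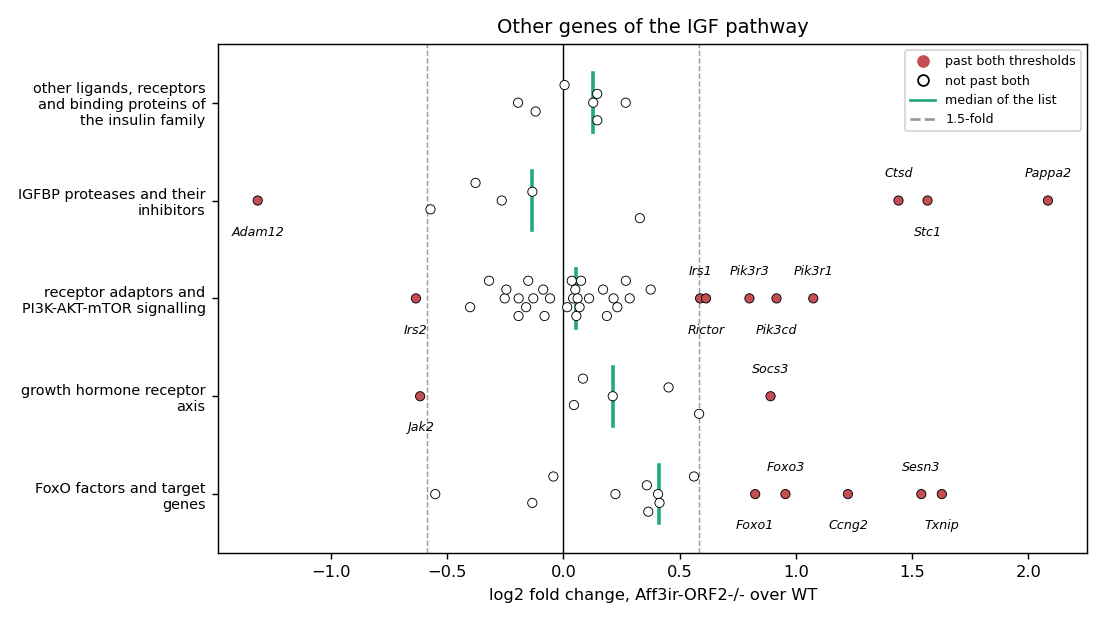
Log2 fold change of *Aff3ir-ORF2*-/- over WT MEFs for the 71 tested genes of the 5 pathway lists. Filled points passed both thresholds and are named, green lines are list medians and dashed lines mark 1.5-fold. Of these genes, 14 lie to the right and 3 (*Adam12*, *Irs2* and *Jak2*) to the left past both thresholds.

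Other genes had profiles that correlated with those of the ligands over the 6 libraries. By Pearson correlation of log2 CPM, over the 11699 genes whose mean log2 CPM reached 1, the genes most like *Igf1* were *Fut10* (0.999), *Pstpip2* (0.998) and *Colec12* (0.998), and those most like *Igf2* were *Ctif* (0.998), *Cd1d1* (0.998) and *Fbln1* (0.998). A correlation over 0.99 was reached by 133 genes for *Igf1* and by 39 for *Igf2*. These values describe 6 libraries that fall into 2 genotypes, which alone gives high correlations. A correlation does not reflect the size of a change. The log2 fold changes were 0.31 for *Fut10*, 1.28 for *Pstpip2* and 0.72 for *Colec12*, beside 3.04 for *Igf1*. They were -0.29 for *Ctif*, -1.37 for *Cd1d1* and -0.72 for *Fbln1*, beside -0.62 for *Igf2*. In RefSeq, the noncoding genes *Igf1os*, *Igf2os* and *Airn* overlap *Igf1*, *Igf2* and *Igf2r*, and the end of *Igfbp7* overlaps the coding gene *Polr2b* (log2 fold change -0.27, adjusted p = 6.06e-04). Whether the counting used strand was not given in the sources used here, so reads from such pairs cannot be told apart. *Igf1os*, *Igf2os* and *Airn* were not analysed here.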

How the data were processed

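RNA from the MEFs was sequenced as paired-end reads on a DNBSEQ instrument, and the reads were filtered with SOAPnuke. The aligner and counting tool were not given in the sources used here; the submitters' processing notes name the build mm8. The authors deposited a table of raw estimated counts (10.6% to 11.3% of values not whole), which were rounded here. Total counts were 17435133 to 17726034 in WT and 18209421 to 18252330 in *Aff3ir-ORF2*-/- libraries. Among the members, counting error limits mainly *Igf1* in WT. Groups came from the sample titles.

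The 13075 genes that passed filterByExpr (at least 10 counts, 15 in total) were tested in edgeR 4.0.16 with the robust quasi-likelihood test after TMM scaling (R 4.3.3), without covariates, with Benjamini-Hochberg adjustment over all tested genes. Calls needed an adjusted p under 0.05 and 1.5-fold. Log2 CPM for correlations used a prior count of 2. The SE is the absolute log2 fold change over the square root of F. The fit was also run on simulated data with few changed genes and the same dispersion in both genotypes. Those settings differ from these data, so no conclusion is drawn from that run. Lengths came from GENCODE M21 (16475 of 17092 genes matched by symbol), and names, neighbours and promoters from RefSeq GRCm38.p6 (17043 gene IDs matched). Limma 3.58.1, DESeq2 1.42.0 and, for figures, matplotlib 3.10.9 were used. Members and lists were chosen with earlier results of these data known. Named genes were all members; per pathway list, those past both thresholds (up to 6 by adjusted p) and the 2 with the most counts; per marker list, up to 4 by counts; and the 3 nearest profiles for each ligand. *Cited2*, *Socs2*, *Stat5a*, *Polr2b*, *Gfap*, *Pappa*, *Stc2*, *Pecam1* and the called endothelial markers were named after their values were seen. So were the 3 untested insulin family genes, the markers at 0 and the myogenic factors. Alternatives were other scalings, filters, tests, thresholds, a replicate block, median transcript lengths (for shares and ratios, chosen after seeing the data) and leaving out each library.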

Additional observations from a re-analysis of the deposited data

How the results depend on the processing

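*Igf1*, *Igfbp2*, *Igfbp6* and *Igfbp7* kept their direction and their call under all 15 alternatives that changed the fit and not the thresholds (*Igf1* 2.84 to 3.30, *Igfbp2* 2.44 to 2.63, *Igfbp6* -1.02 to -0.82, *Igfbp7* 0.61 to 0.70 on the log2 scale). *Igf2* kept its direction, and it was at -0.58 under upper quartile scaling and at -0.72 to -0.55 with 1 library left out, the last value without KO1. Leaving out 1 library gave -0.046 to 0.11 for *Igf2r* and -0.27 to 0.52 for *Igfbp3*, each below 0 without KO2 alone. The count of higher members, 3, was 2 at 2-fold, where *Igfbp7* was lost, and 2 in a test against a 1.5-fold change. The count of lower members, 2, was 1 under upper quartile scaling, 4 with no minimum fold, 0 at 2-fold, 1 in a test against a 1.5-fold change, and 1 to 2 with 1 library left out. The calls in the pathway lists, 17, became 44 with no minimum fold and 8 at 2-fold, and 16 to 18 with 1 library left out. Over all tested genes, 1851 higher and 951 lower calls became 3831 and 3591 with no minimum fold, 1096 and 317 at 2-fold, and 1074 and 410 in the test against a 1.5-fold change. With 1 library left out they were 1780 to 1917 and 898 to 1030. The quasi-likelihood fit without robust moderation, added after seeing the data, gave 1865 and 957. The scalings moved the median log2 fold change of all genes by less than 0.1.

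The replicate numbers carry no stated meaning, so they were not taken as pairs. Deviations of same-numbered libraries were only weakly correlated (0.0386, 0.0424 and 0.0145), although each library correlated best with its own number. With the replicate block, 1854 genes were higher and 954 lower, and no call of a member changed. With it, *Igf2* was at -0.63 (adjusted p = 2.85e-05) and *Igf1* at 3.01 (adjusted p = 7.66e-07, beside 5.73e-04 without it). The calls in the pathway lists went from 17 to 16, with 4 receptor adaptor and PI3K-AKT-mTOR genes higher instead of 5. Depth limits *Igf1* in WT, where 49 to 56 counts give a counting error of 13.8%, and genes under 10 counts.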
